A study of Mus musculus with 60 samples.

Results

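The comparison described here is between 2 lines of mouse embryonic stem cells (mESCs) in the second RNA-seq experiment of the series, in which no retinoic acid was added. Both lines carry a degron tag on POLE4 (POLE4-dTAG), so the agent dTAG can remove the tagged protein, and both were grown here in serum and LIF with DMSO for 96 h, so that POLE4 was kept (Ctrl). The line without the MCM2 mutation is called Ctrl, and the other line (Ctrl MCM2-2A) carries the MCM2-2A mutation in the part of MCM2 that binds histones. The members are the 3 Ctrl and 3 Ctrl MCM2-2A libraries of that experiment, 6 of 60 samples in the series, chosen by their labels. Per the study's methods the tag was introduced separately in wild-type and in MCM2-2A cells, so neither line is the parent of the other. Each line is 1 clone, so an effect of the mutation and a difference between clones cannot be told apart in any value below, and an RNA count does not check the mutation itself. The study's methods state triplicates, and p-values measure the spread between these 3 libraries, which may in part be technical.

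MCM2 is a subunit of the MCM2-7 helicase, which unwinds DNA at the replication fork. Its histone-binding part hands old histones to the lagging strand, while POLE4, a subunit of the leading-strand DNA polymerase epsilon, acts in the transfer to the leading strand. Old histones carry modifications that mark genes and repeats as active or silent, which is why gene expression in such lines is of interest.

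RNA was depleted of rRNA, sequenced in pairs with a strand-specific kit, and counted by the authors per gene and per repeat subfamily, without normalization. The Ctrl libraries held 18552805 to 23598266 counts and the MCM2-2A libraries 7126100 to 19023308, replicate 1 being the shallowest of the 6. Repeats held between 7.68% and 8.48% of the counts. Levels are given as CPM, counts scaled to a common library size, after TMM scaling, a correction for library composition. The stem cell markers fixed for the check were high in both lines and none passed the test (Pou5f1, Sox2, Nanog, Esrrb, Zfp42 and Dppa5a). Pou5f1, the core pluripotency factor OCT4, was at 822.5 ± 37.2 CPM in Ctrl MCM2-2A (SD, n = 3) against 797.5 CPM in Ctrl. Esrrb came nearest to a call, with a log2 fold change of -0.42 (SE 0.09, edgeR adjusted p = 0.00217).

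A feature, meaning a gene or a repeat subfamily, is called differentially expressed (DE) when its Benjamini-Hochberg adjusted p in edgeR's quasi-likelihood test is below 0.01 and its log2 fold change exceeds 0.58 in size. Of 17623 features tested, 2830 were DE (16.1%), of which 1673 were higher in Ctrl MCM2-2A (9.49%) and 1157 lower (6.57%). In 2814 of the 2830, the 3 values of a line did not overlap with the 3 of the other. The thresholds themselves favour such features, so this is no further support for the calls. The share over all tested features was not computed. Genes of chromosomes 11, 14 and 15 made up 959 of these calls, out of 2605 tested. Among genes placed on all other chromosomes, 1841 of 14137 were DE (13.0%), 1210 higher (8.56%) and 631 lower (4.46%). A further 5 DE genes are on scaffolds or have no entry in the annotation, and 25 DE features are repeat subfamilies.

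The difference between the lines was not spread evenly over the genome. On chromosome 11, the median log2 fold change of 1377 tested genes was -0.51, and 470 of them were lower in Ctrl MCM2-2A against 41 higher. The decrease ran along the whole chromosome, with medians of 10-Mb windows between -0.81 and -0.38. On chromosome 15 the median was 0.53 over 665 genes, with 237 higher and 7 lower, and every 10-Mb window had a median above 0 (0.22 to 0.65). Chromosome 14 was split. Its 2 windows between 50 and 70 Mb (mm10) had medians of 0.97 and 0.91, with 96 and 47 genes higher and 0 lower in either. Its window from 40 to 50 Mb had a median of 0.45, with 13 genes higher and 3 lower. The windows below 40 Mb had medians between -0.12 and 0.10, and those above 70 Mb between -0.28 and 0.09. The share of gene counts that came from chromosome 11 was 13.07%, 12.94% and 13.1% in the Ctrl libraries and 9.19%, 9.14% and 9.39% in the Ctrl MCM2-2A libraries. The other autosomes had medians between -0.11 and 0.13, chromosome 1 being the one at 0.13, with 137 genes higher and 30 lower of 988. Copy number was not measured in these libraries, and its part in the chromosome-wide shifts was not tested.

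**Figure D1:**
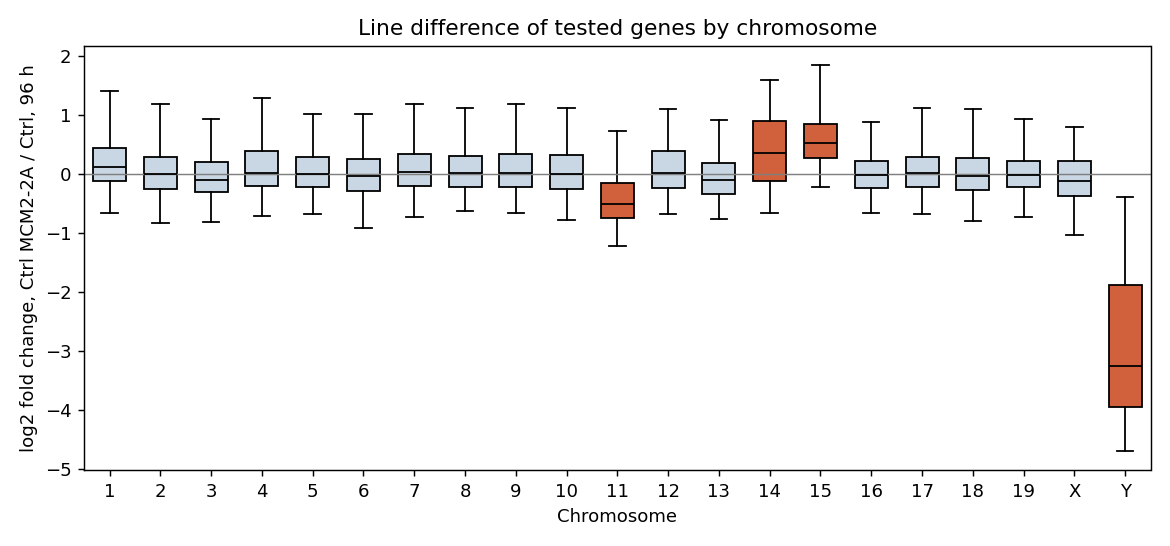
Log2 fold change of Ctrl MCM2-2A against Ctrl at 96 h (y axis) for the tested genes of each chromosome (x axis). Boxes span the quartiles with the median as a line, and whiskers the 5th to 95th percentile of genes. The median of chromosome 11 lies below 0 and those of chromosomes 14 and 15 above, and the 9 tested genes of chromosome Y have a median of -3.25.

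Among genes of at least 5 CPM named by the rule, the 2 largest decreases were on chromosome Y, of which 7 of 9 tested genes were DE and lower in Ctrl MCM2-2A and none was higher. All 7 lie between positions 725128 and 1459782 of the chromosome (mm10). Ddx3y, an RNA helicase, had 96.5, 84.2 and 83.9 CPM in the Ctrl libraries and 3.18, 2.77 and 2.61 CPM in the Ctrl MCM2-2A libraries. All 3 values of Ctrl MCM2-2A were far below the lowest of Ctrl, and the fitted decrease was 31.6-fold (log2 fold change -4.98, SE 0.13, adjusted p = 6.19e-11). Uty, a relative of the histone demethylase Kdm6a, fell from 35.0 ± 1.21 CPM to 1.37 ± 0.18 CPM (SD, n = 3 each), a log2 fold change of -4.70. Eif2s3y, a translation initiation factor subunit, was at 62.8, 57 and 58.7 CPM in Ctrl and at 8.02, 6.28 and 6.32 CPM in Ctrl MCM2-2A. Uba1y, which encodes a ubiquitin-activating enzyme, Zfy1, a zinc finger protein, and Kdm5d, a histone demethylase, had log2 fold changes of -3.25, -3.37 and -3.96. Kdm5d had 6 counts in all 3 Ctrl MCM2-2A libraries together, against 142 in Ctrl. Usp9y, a deubiquitinase, changed least among the 7 (-1.88, SE 0.42), and it was no longer called without Ctrl MCM2-2A replicate 2 (log2 fold changes between -2.47 and -1.49 with any 1 library left out). The tested pair that did not pass, Gm21742 and Gm47283, lies at the far end of the chromosome and had log2 fold changes of 0.01 and -0.39. The number of Y-linked calls was 8 without the shallow library and 7 or 8 without any other 1 library.

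The X-linked partners of these genes did not pass the test. Ddx3x, Kdm6a, Eif2s3x, Uba1, Zfx, Usp9x and Kdm5c had log2 fold changes between -0.24 and 0.08. Y and X partners are alike in sequence and reads with several alignments were kept by the authors, so the few counts left on the Y-linked genes may belong to either copy. In bulk RNA, fewer cells that carry a transcript and less transcript per cell cannot be told apart. In the first experiment, 8 of 10 tested Y-linked genes were lower in the MCM2-2A line after 24 h in DMSO, with a median log2 fold change of -3.09. In dTAG-treated cells of the 96 h experiment, 8 of 9 were lower, with a median of -3.82. Neither comparison shares a library with the Ctrl comparison at 96 h.

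**Figure D2:**
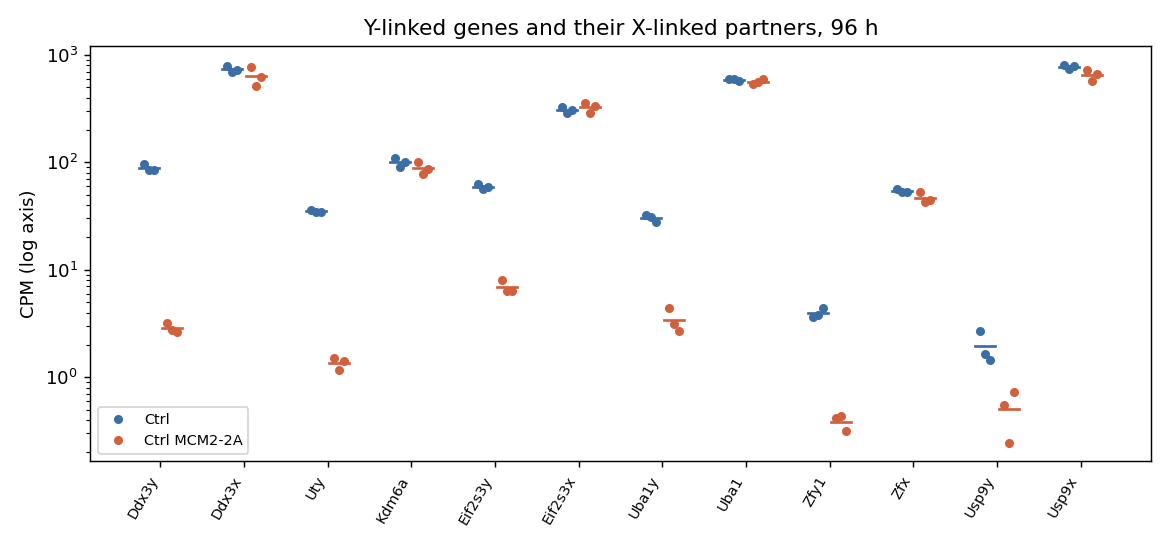
CPM on a log axis for Y-linked genes and the X-linked partner of each (Kdm5d, with a library at 0, is not drawn), in the 3 Ctrl (blue) and 3 Ctrl MCM2-2A (orange) libraries at 96 h. Points are libraries and lines are means. The Ddx3y values of Ctrl MCM2-2A lie between 2.61 and 3.18 CPM, whereas the 2 lines lie close to each other for Ddx3x.

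The gene at which the lines differ by design, Mcm2 on chromosome 6, was at 540.8, 514.0 and 516.0 CPM in Ctrl and at 299.3, 306.1 and 291.5 CPM in Ctrl MCM2-2A. These groups did not overlap, and Mcm2 was DE (log2 fold change -0.81, SE 0.07, adjusted p = 3.80e-06). Pole4, tagged in separate events in the 2 lines and not depleted in either, is on the same chromosome and was 51.8 ± 4.65 CPM in Ctrl and 26.8 ± 1.30 CPM in Ctrl MCM2-2A (SD, n = 3 each; log2 fold change -0.95, SE 0.10). The 10-Mb window of chromosome 6 from 90 to 100 Mb, next to Mcm2 (88883474 to 88898780), had a median of -0.28 with 16 genes lower and 3 higher of 45, while the window from 80 to 90 Mb that holds both genes had a median of 0.02. Of 34 replisome genes tested, 1 was higher and 4 were lower, and their median was 0.07, a number of calls near the 16.1% over all features. Besides Mcm2 and Pole4, Gins1, a subunit of the GINS part of the helicase, was lower (-0.77), as was Pold2, a subunit of DNA polymerase delta on chromosome 11 (-0.60). Wdhd1, a fork protein encoded on chromosome 14, which is shifted in part, was higher (1.16).

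Outside chromosomes 11, 14, 15 and Y, the largest increase was of Mmp9, a secreted protease that cuts extracellular matrix. Mmp9 had 1.97, 1.26 and 1.31 CPM in Ctrl and 11.3, 16.8 and 12.6 CPM in Ctrl MCM2-2A. All values of Ctrl MCM2-2A were more than 5 CPM above those of Ctrl, and the increase was 9.09-fold (log2 fold change 3.18, SE 0.22, adjusted p = 7.12e-07). Genes of surface proteins were among the 12 largest increases. Thy1, a glycoprotein used as a marker of fibroblasts and T cells, was 3.73 ± 0.77 CPM in Ctrl and 18.3 ± 2.83 CPM in Ctrl MCM2-2A (SD, n = 3 each), 5.02-fold higher. Itgb2, an integrin chain of leukocytes, Cdcp1, a transmembrane protein, and Epha8, an ephrin receptor, had log2 fold changes of 2.35, 2.31 and 2.33. Alox5, which makes leukotrienes, had 2.38. Ltb4r2, a receptor for leukotriene B4 in the shifted stretch of chromosome 14, had the largest increase on that chromosome (2.96). Nlrc5, a transactivator of MHC class I genes, had 0.64, 0.93 and 1.74 CPM in Ctrl and 6.08, 5.79 and 5.17 CPM in Ctrl MCM2-2A. Tap1, a peptide transporter of the same presentation pathway that was named after its values were seen, had 6.86, 4.93 and 5.21 CPM in Ctrl and 26.8, 18.2 and 17.9 CPM in the mutant line (log2 fold change 1.84). Psmb8 and Erap1, which also act in that pathway, had -0.22 and -0.32 and were not called. The pathway was not read as a list. Rhobtb1 (2.66), Spata31d1b (2.46), Klhdc7a (2.22), Ptpn7, a tyrosine phosphatase of blood cells (2.19), and Slc38a3, a glutamine transporter (2.12), complete the 12. All 12 were also DE and higher in the MCM2-2A line in the 24 h experiment and under dTAG at 96 h.

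Outside chromosomes 11, 14, 15 and Y, Dppa3 was among the largest decreases. Dppa3, also called Stella, marks naive stem cells and early germ cells and protects DNA methylation in the zygote. It had 33.4, 38.2 and 33.8 CPM in Ctrl and 7.05, 5.29 and 6.58 CPM in Ctrl MCM2-2A, without overlap (5.66-fold lower, log2 fold change -2.50, SE 0.13, adjusted p = 6.85e-08). Hhip, an inhibitor that binds hedgehog ligands, had 7.99, 11.3 and 7.88 CPM in Ctrl and 1.10, 0.98 and 1.36 CPM in Ctrl MCM2-2A (-2.93). Smyd1, a methyltransferase of heart and muscle, fell by 2.23 on the log2 scale. The X-linked genes Nxf3, a member of the mRNA export factor family, and Xlr3b, of a family with near-identical copies, fell by 2.69 and 2.51. Sgo2b, a shugoshin gene, had -2.41 and Pga5, a pepsinogen, -2.32. These 7 were also DE and lower in the MCM2-2A line at 24 h and under dTAG.

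**Figure D3:**
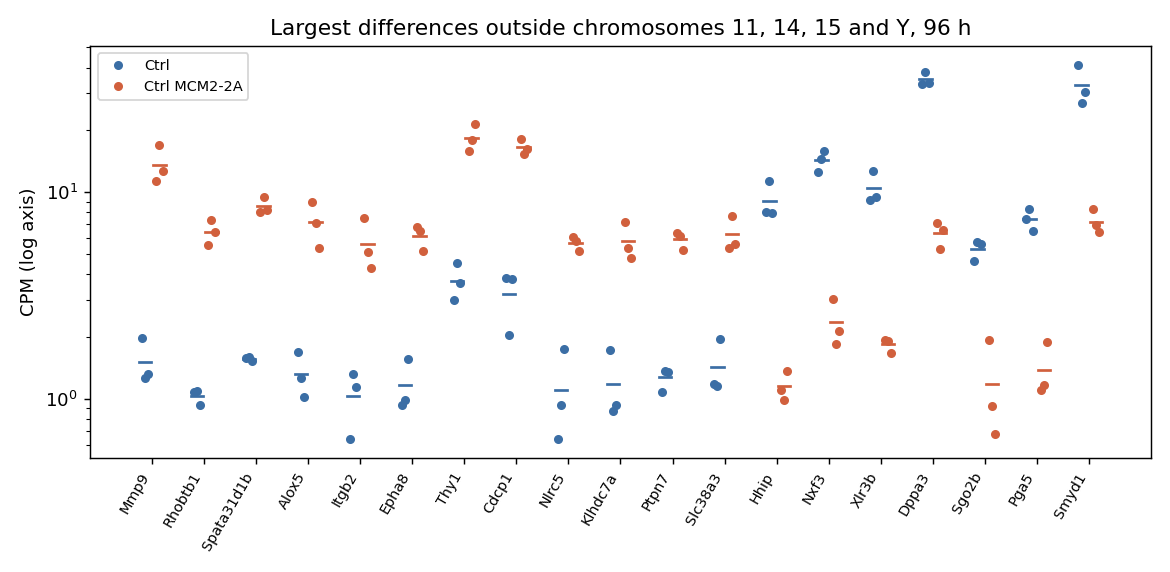
CPM on a log axis for the 12 largest increases (left) and 7 of the decreases that are not on chromosome Y (right) among genes outside chromosomes 11, 14 and 15, in 3 Ctrl (blue) and 3 Ctrl MCM2-2A (orange) libraries. Points are libraries and lines are means. The genes were chosen for groups that do not overlap.

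On chromosomes 11 and 15, some genes moved far beyond the chromosome's median and some against it. Chromosome 14 is shifted only in part, so a decrease there need not go against a shift. On chromosome 11, Fbxo47, an F-box gene of germ cells (-2.51), Itgb3, an integrin chain of platelets (-1.89), and Ddc, which makes dopamine and serotonin from their precursors (-1.88), fell furthest. Coro6 (1.72), Car4, a carbonic anhydrase (1.34), and Slc13a5, a citrate transporter (1.33), rose. On chromosome 14, Gata4 and Clu, the chaperone clusterin, followed Ltb4r2 with log2 fold changes of 2.86 and 2.58, and Sox21 (-1.85), Wdfy4 (-1.11) and 3830406C13Rik (-1.07) fell. On chromosome 15, Krt79, a keratin (2.63), Vdr, the vitamin D receptor (2.37), and Kcnj4, a potassium channel (2.13), rose most. Aard (-1.17) and Lima1 (-0.73) fell, as did Ly6a, a surface protein also called Sca-1 (-0.79). The Ly6a call was lost without any 1 library except Ctrl MCM2-2A replicate 3, in which its level was the highest of that line (10.2 CPM), with log2 fold changes between -1.15 and -0.58.

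Targets of p53, the transcription factor that responds to DNA damage and other stress, were mostly higher in Ctrl MCM2-2A. The median log2 fold change over 18 tested targets was 0.67, against -0.01 over all tested features. Of these 18, 12 were DE and higher (9.49% of all features were), 0 were lower and 6 did not pass. None of the 12 is on chromosome 11, 14 or 15. Pmaip1, which encodes the cell death protein NOXA, had 7.99, 8.32 and 7.41 CPM in Ctrl and 35.4, 24.7 and 26.9 CPM in the mutant line (log2 fold change 1.85, SE 0.15). Perp, another effector of cell death, had 27.0, 21.1 and 17.2 CPM in Ctrl and 68.7, 52.4 and 54.4 CPM in Ctrl MCM2-2A (1.42). Btg2, an inhibitor of proliferation, rose 2.30-fold (1.20, SE 0.13), Gdf15, a secreted stress factor, had 1.21, Phlda3, an inhibitor of AKT, had 1.15, and Plk2, a kinase, had 1.10. Smaller increases were called for Bbc3, which encodes the cell death protein PUMA (0.77), Ei24 (0.77), Trp53inp1 (0.70), Sesn2 (0.64), Mdm2, the ubiquitin ligase of p53 (0.63), and Cdkn1a, which encodes the cell cycle inhibitor p21 (0.59). Cdkn1a had 53.2, 45.9 and 42.6 CPM in Ctrl and 75.2, 71.1 and 67.5 CPM in Ctrl MCM2-2A. The count of 12 fell to 8 without Ctrl replicate 3 and was 9 without the shallow Ctrl MCM2-2A replicate 1, and it lay between 10 and 13 without any other library. At 24 h, 6 of 18 were higher and 0 lower (median 0.33), and under dTAG at 96 h, 9 of 19 were higher and 0 lower (median 0.61).

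The promoter windows of these targets were searched for the p53 consensus site, since their genes moved together, and the windows with a match are shown. A match was 2 half-sites of 10 bases next to each other, with at most 2 departures over the 20 bases and with the invariant C and G of each half-site in place. The consensus is its own reverse complement, so 1 search covers both strands, and it overlaps no other motif searched. The windows were the 250 bases before each RefSeq start (GRCm38.p6, the build of the files). Of 19 listed targets, 14 had a window, and 2 of these 14 held a match, in Cdkn1a and in Ccng1, which encodes cyclin G1. Over all genes with a window the share was 0.329% (89 of 27025). Capitals mark the match.
Cdkn1a, chr17:29090729-29090978, + strand: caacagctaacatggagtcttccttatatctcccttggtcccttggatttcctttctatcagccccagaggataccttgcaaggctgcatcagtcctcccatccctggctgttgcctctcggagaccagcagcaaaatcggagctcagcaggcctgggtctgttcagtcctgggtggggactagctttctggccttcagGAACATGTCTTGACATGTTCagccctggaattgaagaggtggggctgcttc
Ccng1, chr11:40755287-40755536, - strand: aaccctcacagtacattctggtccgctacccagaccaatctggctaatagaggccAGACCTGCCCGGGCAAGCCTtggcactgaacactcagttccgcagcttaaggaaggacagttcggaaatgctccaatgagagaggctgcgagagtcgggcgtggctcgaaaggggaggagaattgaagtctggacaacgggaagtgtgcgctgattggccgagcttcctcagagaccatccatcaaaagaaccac
Both matches had 1 departure from the consensus. The match ended 32 bases before the start in the Cdkn1a window and 176 bases before it in the Ccng1 window. Cdkn1a was DE at 96 h and Ccng1, on the shifted chromosome 11, was not (log2 fold change -0.09, SE 0.13). The other windows hold no match by these letters, which says nothing about binding elsewhere in those genes.

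Genes of the Nodal pathway, a TGF-beta signal of the early embryo that is active in mESCs, were also higher. Of 12 tested, 7 were DE and higher and 0 lower (9.49% and 6.57% over all features), with a median of 0.84. The ligand Nodal had 76, 70.4 and 66.8 CPM in Ctrl and 175.6, 131.9 and 130.4 CPM in Ctrl MCM2-2A, 2.05-fold higher (log2 fold change 1.03, SE 0.11). Its co-receptor Tdgf1, also called Cripto, rose from 292.8 ± 20.5 to 604.7 ± 54.7 CPM (SD, n = 3 each). The feedback inhibitors Lefty1 and Lefty2, both targets of the signal, rose 2.97-fold and 2.98-fold. Lefty1 had 16.3, 38.2 and 32.3 CPM in Ctrl and 85.3, 97.3 and 74.9 CPM in Ctrl MCM2-2A, so the Ctrl values were spread but none reached those of Ctrl MCM2-2A. The receptor Acvr1b (0.81) and the transcription factor Foxh1 (0.87) are on chromosome 15, and leaving that chromosome and the other shifted ones aside, 5 of 10 were higher. Gdf3 and Acvr2a had -0.53 and -0.52 and were not called. The same number of members, 7 of 12, was higher in each of the other comparisons between the lines, with 1 lower in each.

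FGF ligands, receptors and feedback inhibitors of ERK signalling, the pathway that moves mESCs out of the naive state, had 7 of 19 members higher and 1 lower (9.49% and 6.57% over all features), with a median of 0.40. The receptor Fgfr4 had 3.01, 2.85 and 2.75 CPM in Ctrl and 12.9, 9.79 and 8.41 CPM in Ctrl MCM2-2A (1.79). The feedback phosphatase Dusp6 had 53.5, 47.5 and 44.9 CPM in Ctrl and 105.0, 110.1 and 121.5 CPM in Ctrl MCM2-2A (2.31-fold higher). The inhibitors Spry4, Spry1 and Spry2 had log2 fold changes of 0.99, 0.98 and 0.79, the last from chromosome 14. The ligands Fgf5 (1.64) and Fgf15 (0.81) rose, and Fgf17, on chromosome 14, fell (-0.86). Fgf17 lost its call in 3 and Fgf15 in 1 of the 6 fits without 1 library. Fgf4, the main ligand in mESCs, did not pass. At 24 h, 4 of 19 members were higher and 4 lower (median 0.16). Under dTAG at 96 h, 8 of 19 were higher and 0 lower (median 0.56).

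Of 16 naive and core pluripotency factors, 0 were higher and 3 lower (9.49% and 6.57% over all features), with a median of -0.25. These were Dppa3, Pramel6 (-1.29) and Pecam1 on chromosome 11 (-0.84). Of 9 formative factors, which mark the state after the naive one, Fgf5 and Pou3f1 were higher (1.64 and 0.85), and Zic2 and Zic5, neighbours on chromosome 14, were lower (-0.62 and -0.75). At 24 h, 1 of these 9 was higher and 3 lower, and under dTAG at 96 h, 2 were higher and 2 lower. LIF and STAT3 genes had 1 of 11 lower, Il6st, the shared receptor chain gp130 (-0.77). In the Wnt list, Cdx1, Lgr5, Wnt6 and Wnt8a were higher (log2 fold changes of 1.66 to 1.98), and Notum (-1.23) and Znrf3 (-0.61), both inhibitors of the pathway on chromosome 11, were lower, out of 18 tested. At 24 h, 1 of 18 in the Wnt list was higher and 8 lower (median -0.36). Under dTAG at 96 h, 3 of 18 were higher and 4 lower (median 0.07).

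Markers of other cell types were read as a check of the cultures. Of 13 primitive endoderm markers tested, 6 were higher and 1 lower (9.49% and 6.57% over all features), with a median of 0.66. With the replicate number as a block, 8 were higher, and without 1 library 4 to 7 were. The factors Gata6 (3.36, 4 and 2.71 CPM in Ctrl against 14.4, 12.9 and 10.4 CPM), Gata4 (1.04 ± 0.14 against 7.60 ± 0.85 CPM, SD, n = 3 each), Sox7 and Sox17 had log2 fold changes of 1.89, 2.86, 1.84 and 1.67. Gata4 and Sox7 lie in the shifted stretch of chromosome 14 and Dab2 (1.20) on chromosome 15. The sixth call, of the collagen gene Col4a2 (0.62), was lost in 5 of the 6 fits without 1 library, and that of Sox17 without Ctrl MCM2-2A replicate 3. The laminin gene Lama1, abundant in that lineage, was lower (-0.65), Sparc and Lamc1 did not pass, and the summed level of all 14 markers was 1313 to 1408 CPM in Ctrl MCM2-2A and 1377 to 1614 CPM in Ctrl. Of the trophoblast markers, Krt7 on chromosome 15 (2.11) and Eomes (0.81) were higher and Gata3 lower (-1.75), out of 10. Eomes lost its call without Ctrl MCM2-2A replicate 3. At 24 h, 1 of 10 trophoblast markers was higher and 4 lower, and under dTAG at 96 h, 3 were higher and 1 lower. Pax6, a regulator of neural fate, was lower, with 12.3, 15.4 and 12.5 CPM in Ctrl and 4.70, 3.88 and 2.66 CPM in Ctrl MCM2-2A (-1.92), the one call among 5 neural markers. Eomes, which is in both lists, was also the one call among 9 markers of mesoderm and primitive streak. Thy1 was the one call among 4 fibroblast and feeder markers, and Col1a1 had 39.8, 26.3 and 14.4 CPM in Ctrl and 9.67, 18.3 and 14.4 CPM in Ctrl MCM2-2A. Mesoderm and primitive streak markers had 6 of 8 lower and 0 higher at 24 h (median -1.41). Neural markers had 3 of 5 lower and 0 higher there, and fibroblast and feeder markers 4 of 6 lower and 1 higher. The dTAG comparison at 96 h had 0 of 9, 2 of 5 and 0 of 4 lower in these lists, and 1, 0 and 1 higher. Primitive endoderm markers had 4 of 13 higher and 1 lower in both comparisons. The part of cells outside the stem cell state in the results was not tested.

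Genes of chromatin regulators were read list by list, against 16.1% DE over all features. Of 29 Polycomb genes, 1 was DE, Suz12, a core subunit of PRC2 on chromosome 11. It had 529.0, 468.1 and 498.5 CPM in Ctrl and 260.6, 186.4 and 217.6 CPM in Ctrl MCM2-2A (2.26-fold lower), below the median of its chromosome. Of 19 genes of H3K9 methylation and repeat silencing, Mphosph8 on chromosome 14 was higher (1.01), and Cbx1 (-0.83) and Morc2a (-0.59) on chromosome 11 were lower. Of 20 histone chaperones, 1 was called, Supt16 on chromosome 14, a FACT subunit (1.01). Dnmt3a, a DNA methyltransferase on chromosome 12, rose from 183.0, 224.7 and 196.1 CPM to 413.2, 422.4 and 368.3 CPM (1.99-fold, adjusted p = 4.79e-06), and Tet2, which oxidizes methylated DNA, fell (-0.63), out of 9. The replacement histone list had H3f3b lower (-0.94), on chromosome 11, out of 10. Myc, on chromosome 15, was higher (0.98), and the other Myc genes did not pass.

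Replication-dependent histone genes, which are expressed in S phase, had a median of -0.33 over 68 tested, and 62 of the 68 had a fold change below 0. Only 6 passed the threshold downward (8.82% of 68, against 6.57% over all features) and 2 upward. Hist1h1b, a linker histone H1, had 255.6, 361.1 and 278.3 CPM in Ctrl and 166.5, 199.1 and 197.2 CPM in Ctrl MCM2-2A (-0.67). The 2 that rose were Hist1h2aa (0.80) and Hist1h2ba (1.00), both testis variants. The count of 6 dropped to 1 without Ctrl replicate 2, the library with the highest Hist1h1b level, and was 10 without Ctrl replicate 1. The 24 h comparison had 0 of 68 lower and 3 higher (median -0.085). The dTAG comparison at 96 h had 18 of 68 lower and 0 higher (median -0.52). Members of these clusters are near-identical, and their single values are uncertain for that reason.

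Of 25 germline genes that DNA methylation silences, 9 were higher and 3 lower (9.49% and 6.57% over all features, median 0.09). Tdrd1, a piRNA pathway protein, had 2.52, 1.81 and 2.50 CPM in Ctrl and 8.98, 7.39 and 7.10 CPM in Ctrl MCM2-2A (1.73). The germ cell genes Sycp1 (1.27), Sycp3 (1.21), Taf7l (1.15), Tex101 (1.15), Brdt (1.02), Mael (0.94), Mov10l1 (0.93) and Ddx4 (0.64) also rose. Asz1 (-1.89), Hormad1 (-1.17) and Stk31 (-0.76) fell, but all 3 lost their calls without Ctrl MCM2-2A replicate 3, Asz1 did so in 5 of the 6 fits without 1 library, and 0 of the list were lower under dTAG. The 9 were 5 without Ctrl MCM2-2A replicate 3 or without Ctrl replicate 2, and 6 without Ctrl replicate 3. Of 30 imprinted genes, 3 were higher and 6 lower (median 0.04), the former close to the 9.49% over all features and the latter against 6.57%. With the replicate block, 4 were higher and 6 lower. Igf2, a growth factor expressed from the paternal copy, had 10.7, 6.41 and 7.58 CPM in Ctrl and 24.5, 27.2 and 33.6 CPM in Ctrl MCM2-2A (3.49-fold higher), while H19, the maternal transcript of the same domain, did not pass. Peg10 (0.84) and Dlk1 (0.64) rose. Plagl1, a zinc finger gene of the paternal copy, had 35.4, 30.1 and 25.5 CPM in Ctrl and 10.5, 11.8 and 13.7 CPM in Ctrl MCM2-2A (2.47-fold lower), and Peg13, Peg12, Grb10, Ndn and Zrsr1 had log2 fold changes between -1.26 and -0.65. Leaving out chromosomes 11, 14 and 15, 3 imprinted genes were higher and 3 lower.

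Of 852 repeat subfamilies tested, 4 were higher and 21 lower, 2.93% in all, and 23 of the 25 are LTR subfamilies by name. MMERGLN-int, the inner part of a gamma-type endogenous retrovirus, had 130.7, 149.9 and 136.5 CPM in Ctrl and 325.6, 399.5 and 346.3 CPM in Ctrl MCM2-2A (2.57-fold higher, log2 fold change 1.36, SE 0.09). Its LTR, MMERGLN_LTR, rose with it (0.84). RLTR26_Mus (0.72) and the major satellite GSAT_MM (0.93) were the other 2, and each lost its call in 4 or 5 of the 6 fits that left out 1 library. Downward, ETnERV3-int had 165.6, 106.0 and 119.4 CPM in Ctrl and 38.6, 20.8 and 24.0 CPM in Ctrl MCM2-2A (4.85-fold lower). MLT1J1-int (-3.02), IAPEy-int (-2.17), ERVB2_1A-I_MM-int (-1.50) and RLTR13B2 (-1.42) followed. The 20 lower LTR subfamilies became 13 without Ctrl MCM2-2A replicate 2 and 12 without its replicate 3. The classes as a whole had medians of -0.05 over 507 LTR and -0.05 over 135 LINE subfamilies, of which 1 was lower. A subfamily sums its copies over the genome, so copies on chromosomes 11, 14, 15 and Y cannot be separated from the rest.

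The same lines were compared in 2 sets of libraries that the 96 h Ctrl comparison did not use. After 24 h in DMSO in the first experiment, 3430 of 17972 features were DE (19.1%). Among genes outside chromosomes 11, 14 and 15, 1070 were DE in the same direction at both times, 58.1% of the 1841 at 96 h and 45.9% of the 2330 at 24 h. Of the 1796 that were DE at 96 h and tested at 24 h, 93.2% had the same sign, against 75.3% of all such genes tested. Under dTAG at 96 h, 2903 of 17484 features were DE (16.6%), and 1305 genes outside the 3 chromosomes were called alike, 70.9% of the Ctrl list and 66.6% of the dTAG list. There, 99.6% of 1806 had the same sign, against 84.1% of all. The Ctrl and dTAG comparisons belong to the same experiment and the same clones. The medians of chromosomes 11 and 15 were -0.48 and 0.56 at 24 h and -0.51 and 0.46 under dTAG.

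Where the 2 experiments differed was tested as an interaction, the line difference at 96 h minus that at 24 h, over 12 libraries. Of 18678 features, 352 passed (1.88%), 311 with a more positive line difference at 96 h and 41 with a more negative one. With the replicate number as a block the count was 572 (464 and 108). It was 208 without Ctrl replicate 1 of the first experiment, 229 without Ctrl MCM2-2A replicate 3 and 232 without Ctrl replicate 2 of the second. Of the 311, 208 were genes or repeats called lower in the MCM2-2A line at 24 h, and 176 of these were not DE at 96 h. In 205 of the 208 the Ctrl line had a lower mean at 96 h than at 24 h, and in 198 the MCM2-2A line had a higher one. The 208 were selected on these same values, which favours both directions, so the 2 counts are descriptive only.

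Igfbp3, a gene on the shifted chromosome 11 whose protein binds insulin-like growth factors, had the smallest p. On 1 scale over the 12 libraries, it was at 141.7, 124.7 and 139.4 CPM in Ctrl and 14.9, 14.1 and 15.6 CPM in Ctrl MCM2-2A at 24 h. At 96 h it was at 50.2, 42.1 and 41.0 CPM in Ctrl and 23.4, 28.0 and 27.9 CPM in Ctrl MCM2-2A. The log2 fold change was thus -3.19 in the first experiment and -0.72 in the second, a difference of 2.45 (SE 0.13, adjusted p = 1.51e-08). Gbp2, an interferon-induced GTPase, went from -3.79 to -0.78, Fst, the activin antagonist follistatin, from -3.70 to -0.81, Sema6a, a guidance protein, from -3.48 to -0.36, and Piezo2, a mechanosensitive channel, from -3.43 to 0.47. Epha1, an ephrin receptor, was lower in the MCM2-2A line at 24 h (-1.28) and higher at 96 h (0.82), with 9.29, 8.17 and 8.74 CPM in Ctrl and 12.5, 15.4 and 17.0 CPM in Ctrl MCM2-2A at 96 h. Of features with opposite calls in the 2 experiments there were 23. All passed the interaction test, which opposite calls beyond the thresholds all but ensure. The Gbp2 and Fst calls at 96 h are weak. Gbp2 lost its call without Ctrl MCM2-2A replicate 2 or 3 or Ctrl replicate 1 or 2 (log2 fold changes between -0.94 and -0.60), and Fst without Ctrl MCM2-2A replicate 3. Time in DMSO and experiment change together between these sets, and cannot be told apart.

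**Figure D4:**
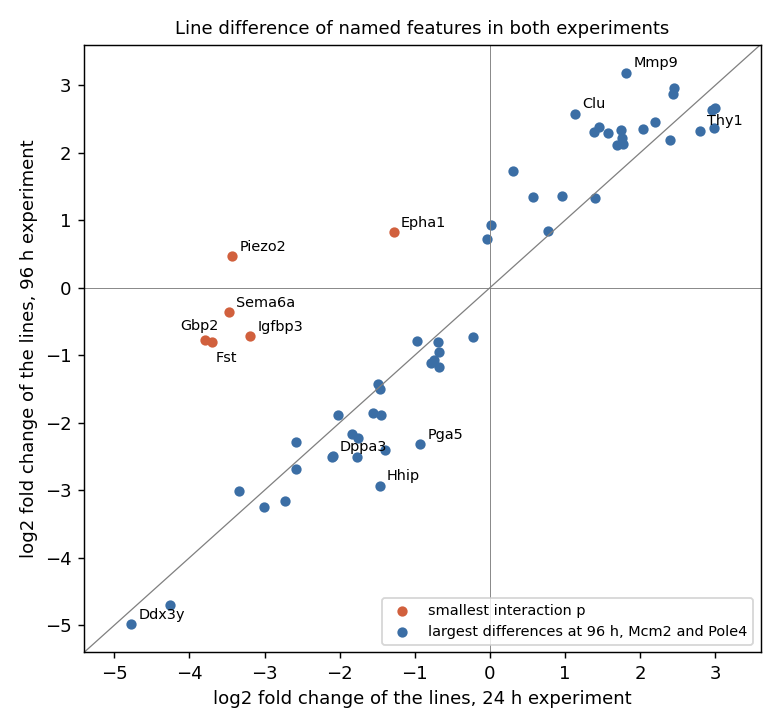
Log2 fold change of the MCM2-2A line against the Ctrl line in the 24 h experiment (x axis) and the 96 h experiment (y axis), with the line of equal values. Blue points are the features with the largest differences at 96 h, chosen on the y axis, with Mcm2 and Pole4, and orange points the 6 genes with the smallest interaction p. Ddx3y lies near the line at the lower left, and Igfbp3 far to its left.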

How the data were processed

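RNA-seq counts of 6 mESC libraries were analysed, 3 per line, with 12 more libraries of the same lines for comparison. The authors trimmed reads with cutadapt 4.2 (version per the submitters' processing notes), aligned them with STAR to mm10 keeping multiple alignments, and deposited raw counts per gene (55487) and repeat subfamily (1146), not normalized or pooled. Positions and symbols came from a GENCODE annotation of the same build, and the 346 genes without a chromosome there were counted apart as unplaced.

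In R 4.3.3, filterByExpr removed low features (min.count 10 and min.total.count 15), and the rest were scaled by TMM over genes and repeats, and tested with edgeR 4.0.16 (glmQLFit and glmQLFTest), with Benjamini-Hochberg adjustment over all features. The study's methods name DESeq2, which was an alternative (1.42.0). The SE of a log2 fold change is its size divided by the square root of F and holds counting error and the spread between cultures. At 7126100 to 23598266 counts a library, features of a few counts are tested with little precision. The procedure was tested on simulated counts. No 2 libraries of a group agreed within sampling noise.

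Deviations from the group mean correlated between same-numbered libraries at 96 h (r = 0.31, 0.34 and 0.18 across features), so the numbers were taken as pairs, from the data, and a fit with the number as a block was added.

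Genes named are Mcm2, Pole4, called members of the lists, and among DE protein-coding genes whose lines do not overlap and whose higher mean is at least 5 CPM, the 12 largest and 12 smallest log2 fold changes outside chromosomes 11, 14 and 15 and 3 each way on each of these. For repeats it was 5 each way, and for the interaction the 6 smallest p. Members and lists were chosen with earlier results of these data known. The other tested Y-linked genes, their X-linked partners, Tap1, Psmb8, Erap1 and list members that were not called were named after their values were seen. A few genes that meet the rule are counted but not reported here. Alternatives were other scalings, filters and thresholds, DESeq2, the block, a wider fit and each library left out.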

Additional observations from a re-analysis of the deposited data

Results flagged for a closer look

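For 17 named genes the line difference at 96 h differed from that at 24 h by the interaction test (edgeR adjusted p below 0.01, difference above 0.58), which is what marked them. For 16 genes the value at 96 h was the more positive one. The differences on the log2 scale were 3.87 for Piezo2, 3.09 for Sema6a, 2.98 for Gbp2, 2.86 for Fst, 2.49 for Fgf5, 2.45 for Wnt8a, 2.45 for Igfbp3, 2.08 for Epha1, 1.64 for Perp, 1.63 for Peg10, 1.41 for Clu, 1.38 for Plk2, 1.23 for Plagl1, 0.99 for Dusp6, 0.98 for Pou3f1 and 0.64 for Cdkn1a. Pecam1 was the 1 gene with the more negative value at 96 h (-0.60). Fgf5, Peg10, Wnt8a and Epha1 were called in opposite directions in the 2 experiments. For Perp, Plk2 and Cdkn1a of the p53 targets, the difference itself passed, with log2 fold changes of -0.25, -0.31 and -0.07 at 24 h against 1.42, 1.10 and 0.59 at 96 h. Groups of 3 libraries are too small for the check of single outlying samples.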

How the results depend on the processing

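The 2830 DE features at 96 h were 2669 with DESeq2, of which 2602 were shared in the same direction, and 3142 with the replicate block. With glmTreat against a 1.5-fold change, stricter by construction, the counts at 96 h, outside chromosomes 11, 14 and 15, at 24 h, under dTAG and for the interaction were 760, 494, 1291, 834 and 87. Without a fold threshold 6110 were DE at 24 h, and a refit without genes of the 3 chromosomes gave 1786. The interaction count was 638 without a filter and 572 with the replicate block. At 96 h the block ended the call of no named gene that was called. It added 2 primitive endoderm markers and 1 imprinted gene, and 3 replication-dependent histone genes were higher with it instead of 2. LTR subfamilies had 25 lower and 5 higher with the block, against 20 and 3 without it. Leaving out 1 library gave 2214 to 2791 at 96 h, 1370 to 1824 outside the 3 chromosomes, 2869 to 3355 at 24 h, 2290 to 2837 under dTAG and 208 to 503 for the interaction. Of genes not called, Gm21742 (main value 0.01) was -0.0105 with DESeq2, -0.0099 without a filter, -0.0266 with the replicate block, -0.0098 with all 4 groups of the 96 h experiment, and -0.1832 to 0.1596 without 1 library. Kdm5c was -0.1688 to 0.0123 without 1 library. Of 61 called features named by the rule, 6 lost the call without some library, as did 36 of 95 other called list members. Of these 156, 9 lost it under another fit and 75 under glmTreat. The older dispersion setting of edgeR, chosen after seeing the data, gave 2767. Depth is lowest in Ctrl MCM2-2A replicate 1, without which 2791 were DE.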

Other observations

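Of 17 tested features that mark the 2-cell-like state, 16 had a log2 fold change above 0 at 96 h and 3 were DE and higher (9.49% over all features), the near-identical ubiquitin protease genes Usp17le (0.98), Usp17lc (1.07) and Usp17la (0.86). Usp17la lost its call in 5 and Usp17lc in 3 of the 6 fits without 1 library. At 24 h, 9 of 16 were higher, with a median of 1.32 against 0.28 at 96 h, and none passed the interaction test. The dTAG comparison at 96 h had 12 of 17 higher and 0 lower (median 0.93). The retroviral element MERVL-int had 832.3, 766.5 and 794.6 CPM in Ctrl and 1062, 871 and 843.6 CPM in Ctrl MCM2-2A at 96 h (0.21, not called).

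Of 27 tested transcripts of the mitochondrial genome, none was DE and the median was 0.02. Their summed level lay between 11580 and 21210 CPM in Ctrl MCM2-2A and between 17050 and 21450 CPM in Ctrl. Of 3 Pramel family genes tested, Pramel6 was lower. Of 39 Hox cluster genes, 4 passed the filter on low counts and 2 of these were DE and higher.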
